A study of Mus musculus with 32 samples.

Results

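GABA-A receptors are ligand-gated chloride channels that carry most fast inhibition in the forebrain, and each one is assembled from several subunits around a central pore. The α and β subunits form the binding site for GABA, and a γ or δ subunit completes the channel: γ-containing receptors are typical of synapses, whereas receptors with δ, often together with α4, and many receptors with α5 lie outside the synapse and respond to ambient GABA. Hippocampal neurons place these receptors on the soma and on the dendrites, so the location of the subunit mRNAs bears on where new subunits could be made.

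The mRNAs of 7 such subunits were followed here from soma to dendrite: 4 α subunits (Gabra2, Gabra3, Gabra4 and Gabra5), 2 β subunits (Gabrb1 and Gabrb2) and the δ subunit (Gabrd). They were taken by name from the 44081 genes of the 3′UTR count table, and all 7 were among the 10880 genes with enough reads to be compared between compartments. Single hippocampal neurons came from C57BL/6 mouse embryos at embryonic day 18 and had spent 15 days in culture. From 16 neurons the cell body and the dendrites were drawn up apart, which gave 16 soma and 16 dendrite libraries paired by neuron. The poly-adenylated RNA was amplified by the linear aRNA method. No treatment or genotype beyond the strain is given for either group. Neurons 1 to 4 had 3 rounds of amplification and neurons 5 to 16 had 2 rounds, always the same for both compartments of a neuron. ERCC spike-in RNA was added at a dilution of 1 in 4000000 to neurons 3 to 16 and not to neurons 1 and 2. The study used several cultures and collection days, but no label states the culture or day of a neuron (the titles carry letters whose meaning is not given), so a shared culture cannot be told apart from chance likeness between neurons.

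Dendrite libraries held 646521 to 6954420 reads on 3′UTRs and soma libraries 925525 to 21169974. A count of 0 therefore allowed up to 4.64 CPM (reads of a gene in every 1000000 reads on 3′UTRs) in the shallowest dendrite library and up to 0.142 in the deepest soma library, taking 3 reads as the limit and counting error alone. CPM values of genes use library sizes scaled by TMM, whereas limits from 0 reads and the levels of single 3′ ends use unscaled totals. The dendrite libraries of neurons 15 and 16 stood apart, with 1570 and 2485 genes at 10 or more reads, against 3794 to 9871 in the other 14. Mitochondrially encoded genes took 35.8% and 32.4% of their reads, and 2.39% to 25.8% in the others. The titles of these 2 neurons share a letter that no other neuron has, and its meaning is not stated. Values without these neurons are given where a result rests on them. The general neuron markers had reads in all 32 libraries. Of the interneuron markers, Gad1 and Gad2, which encode the enzymes that make GABA, also had reads in all 32, with a median of 6990 CPM for Gad1 in somas and 1722 in dendrites. Slc32a1, the vesicular GABA transporter, was read in 16 somas and 15 dendrites. The pyramidal cell markers Slc17a7, a vesicular glutamate transporter, and Camk2a, a kinase of excitatory neurons, were each at 10 or more reads in 13 dendrites and in 10 and 12 somas, with medians of 4.24 and 12.3 CPM in somas and 47.0 and 27.1 in dendrites. Summed over whole lists, the 8 interneuron markers gave 1398 to 24152 CPM in somas and 2240 to 13669 in dendrites, and the 5 pyramidal markers 27.6 to 2025 and 6.67 to 3259. Of the other cells a culture can hold, the 6 astrocyte markers summed to a median of 214 CPM in dendrites and 192 in somas, the 5 oligodendrocyte markers to 8.30 and 2.69, the 5 microglia markers to 5.16 and 0.199, and the 5 endothelial markers, with Cldn5 at 0 in all libraries, to 1.70 and 0.227. The part of these cell types in the subunit values was not tested.

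The 7 genes lie on 5 chromosomes of the mouse assembly GRCm38 (GENCODE annotation). Gabra2 (chr5:70957597-71095849, minus strand) and Gabra4 (chr5:71569749-71658308, minus strand) share chromosome 5 with Gabrb1 (chr5:71658113-72149037, plus strand), whose 5′ end overlaps that of Gabra4 by 196 bases on the opposite strand. The authors counted reads by strand, and the overlap lies far from the 3′UTRs. On the same strand, Gm15616 overlaps Gabrb1, and Mir767 and Mir105 overlap Gabra3. The part of these overlaps in the counts was not tested. Gabra3 is at chrX:72432681-72656848 (minus strand), Gabra5 at chr7:57407672-57510059 (minus strand), Gabrb2 at chr11:42419757-42629028 (plus strand) and Gabrd at chr4:155384980-155398112 (minus strand). The longest protein-coding transcript of each has 9 or 10 exons and a coding sequence of 1350 to 1659 bases. Their annotated 3′UTRs differ far more, from 421 bases in Gabrd and 935 in Gabra5 to 4205 in Gabra2 and 12228 in Gabrb1.

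The subunits belong to 1 gene family, so it matters whether reads could be exchanged between members. Aligned coding sequences were 66.6% to 73.0% identical between α genes (6 pairs), 72.3% identical between Gabrb1 and Gabrb2, and 56.8% to 61.2% identical between classes (14 pairs). The most alike stretch of 30 bases, found by sliding a window in frame along Gabra2, falls in the segment that lines the channel pore in each subunit. The search ran along Gabra2 only, so stretches more alike between other members were not looked for. Bases in capitals are the same in all 7 genes (20 of 30).
Gabra2: GGagTaACaACtGTtCTaACaATGACaACc
Gabra3: GGtgTcACcACtGTtCTcACcATGACcACc
Gabra4: GGaaTaACcACaGTcCTcACgATGACcACc
Gabra5: GGagTgACcACaGTgCTgACcATGACaACa
Gabrb1: GGaaTcACtACgGTgCTgACcATGACcACc
Gabrb2: GGaaTtACaACtGTcCTaACaATGACcACa
Gabrd: GGcaTcACcACtGTgCTgACaATGACcACg
The stretch starts at base 832 of the coding sequence in Gabrb2 and at base 931 in Gabra3, the earliest and the latest of the 7. In this stretch, the closest match to Gabra2 was that of Gabrb2, with 25 of 30 bases. Over longer stretches the genes were distinct: none of the 426 windows of 75 bases in the last 500 bases of any member, and none in any coding sequence, occurred in an annotated transcript of another gene. Other parts of the 3′UTRs, which held many reads of Gabrb1, Gabra4 and Gabrb2, were not compared. Whether reads there could be exchanged between members was not tested.

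The first question was which subunit mRNAs were present in dendrites at all. At 1 or more reads, Gabrb2 was found in 15 of 16 dendrite libraries, Gabra5 and Gabrb1 in 14, Gabra4 in 13, Gabrd in 10, and Gabra2 and Gabra3 in 6 each. In somas the same genes were found in 16 (Gabrb2, Gabra5 and Gabrd), 15 (Gabrb1), 12 (Gabra4 and Gabra2) and 11 libraries (Gabra3). The median gene of all 10880 tested was found in 11 dendrites (quartiles 9 and 14) and 15 somas (quartiles 13 and 16). Gabrd thus lay within the quartiles in both compartments. Gabra4 lay within them in dendrites and under them in somas. On exon counts Gabra4 had a read in 9 dendrites and 8 somas. A dendrite library held a median of 5 of the 7 members and a soma a median of 6. Neuron 15 was the extreme: its dendrites gave no read of any of the 7 among 2235244 reads, which allows up to 1.34 CPM, while its soma gave 5519 reads of 5 members. With every library thinned to 646521 reads, the mean number of members found was 4.38 in dendrites and 5.38 in somas, against 4.88 ± 1.78 (SD, n = 16) and 6.13 ± 0.957 (SD, n = 16) without thinning. Fewer transcripts of a gene and less RNA collected from a compartment cannot be told apart in such values, here and below.

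**Figure D1:**
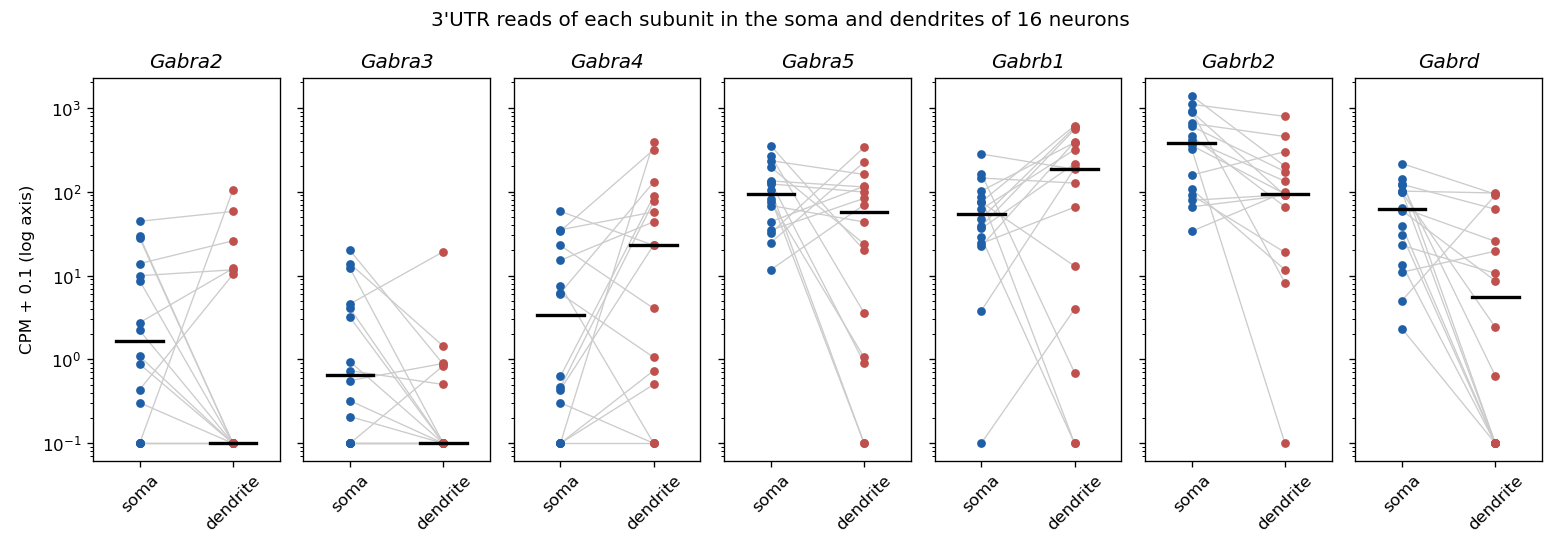
CPM on 3′UTRs, plus 0.1, on a log axis for each subunit (panels), with blue points for the 16 somas, red points for the 16 dendrite samples, grey lines joining the compartments of a neuron and black bars for medians. Gabra4 and Gabrb1 have higher medians in dendrites, while the other 5 have higher medians in somas, and the ranges overlap in every panel.

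Levels can be set side by side between genes only over windows of equal length, which the counts on the final 500 nt of every 3′ end provide. On this scale, in CPM relative to all end reads, the main end of Gabrb2 was the highest in somas, with a median of 326 (SD 343, n = 16). Gabra5 followed with 101 (SD 112), Gabrd with 66.7 (SD 64.8), Gabrb1 with 14.6 (SD 55.6) and Gabra2 with 2.03, and the medians of Gabra3 and Gabra4 were under 1. Each gap between neighbours was smaller than the larger of the 2 SDs. These SDs give the spread between neurons, and the order was not tested within libraries, so it only describes medians. In dendrites the order was Gabra5 with a median of 52.1 (SD 94.3), Gabrb2 with 46.6 (SD 215), Gabrb1 with 26.9 (SD 147) and Gabrd with 5.88 (SD 47.0), and the medians of the other 3 were 0. For 3 members these values are low estimates, since many of their 3′UTR reads lay outside the 500-nt ends: the ends held 51.0% of them in dendrites and 31.8% in somas for Gabrb1, 60.0% and 36.3% for Gabra4, and 55.9% and 68.4% for Gabrb2, against 97.1% and 95.9% for Gabra5. The order of Gabra5 and Gabrb2 in dendrites is affected by this.

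The main question of the design was whether an mRNA was relatively more abundant in dendrites or in somas of the same neurons. Across all 10880 genes, the edgeR quasi-likelihood test with neuron as a block found 711 genes, or 6.53%, to differ at an adjusted p of at most 0.05 (0.827% higher in dendrites and 5.71% higher in somas). None of the 7 subunits was among them; 2 of the 7, Gabrb2 and Gabrd, had an unadjusted p under 0.05, against 30.2% of all genes. On exon counts, 3.62% of 9804 genes passed and again none of the 7, and 1 of the 7 (Gabrd) had an unadjusted p under 0.05, against 24.3% of all genes. DESeq2 with the same paired design passed 4 of the 7: Gabra4 as higher in dendrites, a call made for 4.26% of all genes, and Gabra5, Gabrb2 and Gabrd as higher in somas, a call made for 46.2%. On exon counts DESeq2 passed 0 of the 7 as higher in dendrites (3.68% of all genes) and 3 of the 7, Gabra5, Gabrb2 and Gabrd, as higher in somas (46.5%). The median gene had a log2 fold change (dendrite over soma) of -1.49, and the median of the 7 members was -1.63. The shift itself depended on the libraries: without neuron 15 the median gene lay at -1.05, and without neuron 16 at -1.06. The genes higher in somas then numbered 236 and 130 in place of 621. They numbered 253, 295 and 244 without neurons 3, 12 and 13, and 948 and 990 without neurons 2 and 5. The fold changes below are given with their distance from the median gene.

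**Figure D2:**
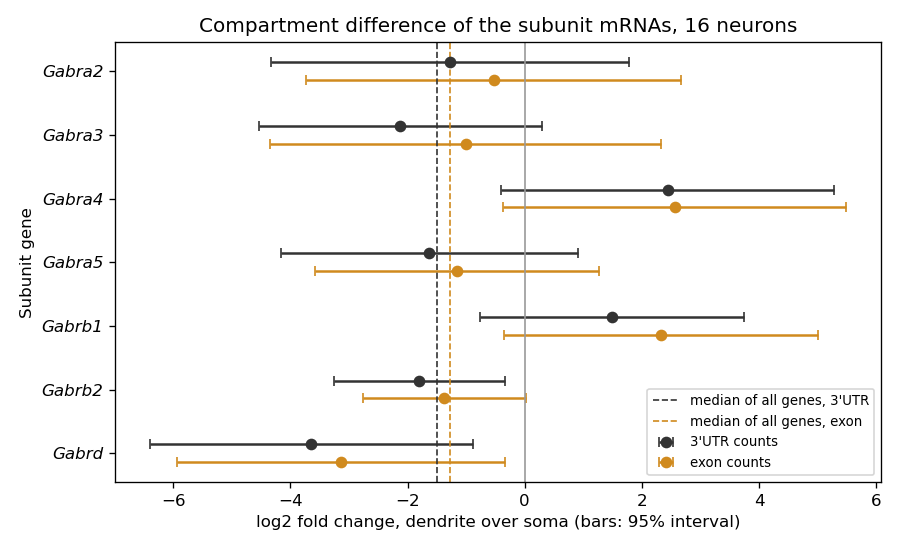
Log2 fold change (dendrite over soma) of each subunit with its 95% interval from edgeR, for 3′UTR counts (black) and exon counts (orange) of 16 neurons, with dashed lines at the median of all genes tested (-1.49 and -1.28). Gabra4 and Gabrb1 lie to the right of 0 and of both dashed lines, with intervals that include 0, and Gabrd lies furthest to the left.

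Among the α subunits, Gabra4 had the highest dendrite-over-soma ratio. This subunit is best known as the partner of δ in extrasynaptic receptors. Its normalised level ran from 0 over a median of 22.9 to 395 CPM in dendrites, and from 0 over 3.26 to 58.1 in somas. The 4 highest libraries were all dendrites (neurons 13, 12, 4 and 10), and the level was higher in the dendrites of 10 neurons and in the soma of 5, with neuron 15 at 0 in both. In neuron 13 the dendrites gave 488 reads while the soma gave none among 13309495. The fitted log2 fold change was 2.44 (SE 1.41, 95% interval -0.40 to 5.28, edgeR adjusted p = 0.227), which is 3.93 above the median gene and above 97.4% of all genes tested. DESeq2 gave 2.50 (SE 0.89, adjusted p = 0.0134).

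Gabra5, a subunit enriched in the hippocampus, was read in every soma, at 11.6 to 353 CPM with a median of 93.8. In dendrites it ran from 0 over 56.5 to 337. The level was higher in the dendrites of 5 neurons and in the soma of 11, and the ranges overlapped widely. The log2 fold change was -1.63 (SE 1.26, 95% interval -4.16 to 0.90, edgeR adjusted p = 0.361), within 0.13 of the median gene. With single neurons left out it ran from -2.07 (neuron 4) to -0.97 (neuron 15). The median gene lay at -1.45 and -1.05 in these fits. A single library, the dendrites of neuron 9, held 50.7% of all dendritic reads of Gabra5.

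Gabra2 and Gabra3, α subunits known mainly from synaptic receptors, were sparse. Gabra2 had a median of 0 and a highest value of 104 CPM in dendrites, and a median of 1.55 and a highest value of 44.2 in somas. The 5 dendrite libraries with at least 10 reads (neurons 4, 5, 7, 13 and 14) came to levels of 10.2 to 104, while 10 others had no read. Its log2 fold change of -1.27 (SE 1.52, edgeR adjusted p = 0.560) lay 0.22 above the median gene, and it was -0.52 without neuron 12 and -0.56 without neuron 16. Gabra3 reached 10 reads in only 1 dendrite library (neuron 7, 20 reads) and in 6 somas, with highest values of 19.1 and 19.8 CPM. Its log2 fold change was -2.12 (95% interval -4.54 to 0.30, edgeR adjusted p = 0.216). In Gabra3 the features counted mattered: the dendrites of neuron 16 had 499 reads on exons and 1 on the 3′UTR, and the exon fold change was -1.01 (adjusted p = 0.724).

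The 2 β subunits, which every common GABA-A receptor needs for assembly, differed in where their levels were highest. Gabrb1 ran from 0 over a median of 187 to 611 CPM in dendrites and from 0 over 54.6 to 281 in somas. It was higher in the dendrites of 10 neurons and in the soma of 6. In 6 dendrite libraries (neurons 3, 5, 6, 7, 10 and 13) it exceeded the highest soma value. Of the 6 neurons with the higher value in the soma, the dendrites of neurons 15 and 16 had no read at all. The log2 fold change was 1.49 (SE 1.12, 95% interval -0.76 to 3.75, edgeR adjusted p = 0.347), 2.99 above the median gene and above 93.1% of all genes. It was 2.05 (SE 0.99, adjusted p = 0.205) without neuron 15 and 2.06 (SE 1.01, adjusted p = 0.224) without neuron 16. On exon counts scaled by ERCC reads, which moved the median gene to -4.11, it turned to -0.24 (SE 1.62, 14 neurons), and Gabra4 was at 0.74 (SE 1.69, adjusted p = 0.694).

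Gabrb2 ran from 33.6 over a median of 385 to 1388 CPM in somas and from 0 over 92.9 to 789 in dendrites. The soma had the higher level in 12 of 16 neurons, and 10 or more reads were present in every library but the dendrites of neuron 15. With the smallest error of the 7, its log2 fold change was -1.80 (SE 0.73, 95% interval -3.25 to -0.34, p = 0.0165, edgeR adjusted p = 0.0988), 0.31 below the median gene. DESeq2 gave -2.09 (SE 0.56, adjusted p = 0.000908). Without neuron 15 the edgeR value was -1.27 (SE 0.57, adjusted p = 0.173).

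The δ subunit had the lowest ratio. Gabrd was read in all 16 somas, at 2.22 to 216 CPM with a median of 61.7, and in 10 dendrite libraries, at up to 96.2 with a median of 5.42 over all 16. The soma had the higher level in 14 of 16 neurons; neurons 2 and 13 were the exceptions. In neurons 9, 15 and 16 the soma gave 838, 1294 and 1074 reads and the dendrites none. The log2 fold change was -3.64 (SE 1.37, 95% interval -6.40 to -0.88, p = 0.0107, edgeR adjusted p = 0.0817), 2.15 below the median gene, and 14.8% of all genes lay lower. DESeq2 gave -3.90 (SE 0.81, adjusted p = 1.47e-05). The edgeR call depended on single neurons: without neuron 2 the value was -4.16 with an adjusted p of 0.0484, and without neuron 15 or neuron 16 it was -2.89 or -2.90 with an adjusted p of 0.187 or 0.198.

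Members were also compared with each other within libraries, where the scaling of a library cancels. The dendrite-minus-soma difference in log2 CPM (prior count 2) was 5.01 higher for Gabra4 than for Gabrd (SE 1.35, n = 16 neurons), with the same sign in 13 of 16 neurons. It was 6.02 with a prior count of 0.5 and 4.30 with 5, and some of the signs rest on almost no reads of Gabra4: neuron 15 had 0 in both compartments, neuron 8 had 0 in dendrites and 1 in the soma, and neuron 11 had 2 and 0. Between Gabrb1 and Gabrd it was 3.65 (SE 0.95), again with 13 of 16 neurons on the same side. In neurons 15 and 16 the dendrites had no read of either gene, so the values there rest on soma levels. Between Gabra4 and Gabrb2 it was 3.93 (SE 1.34), with 13 of 16, and in neuron 15 it rests on soma reads of Gabrb2 alone. These pairs were chosen after their values were seen, so the differences are descriptions and were not tested. Without neuron 15 they were 4.79, 3.74 and 3.56, and on exon counts 4.81, 4.00 and 3.57. By contrast, Gabra5 and Gabrb2 differed by only 0.16 (SE 1.03), with 9 neurons on one side and 7 on the other.

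**Figure D3:**
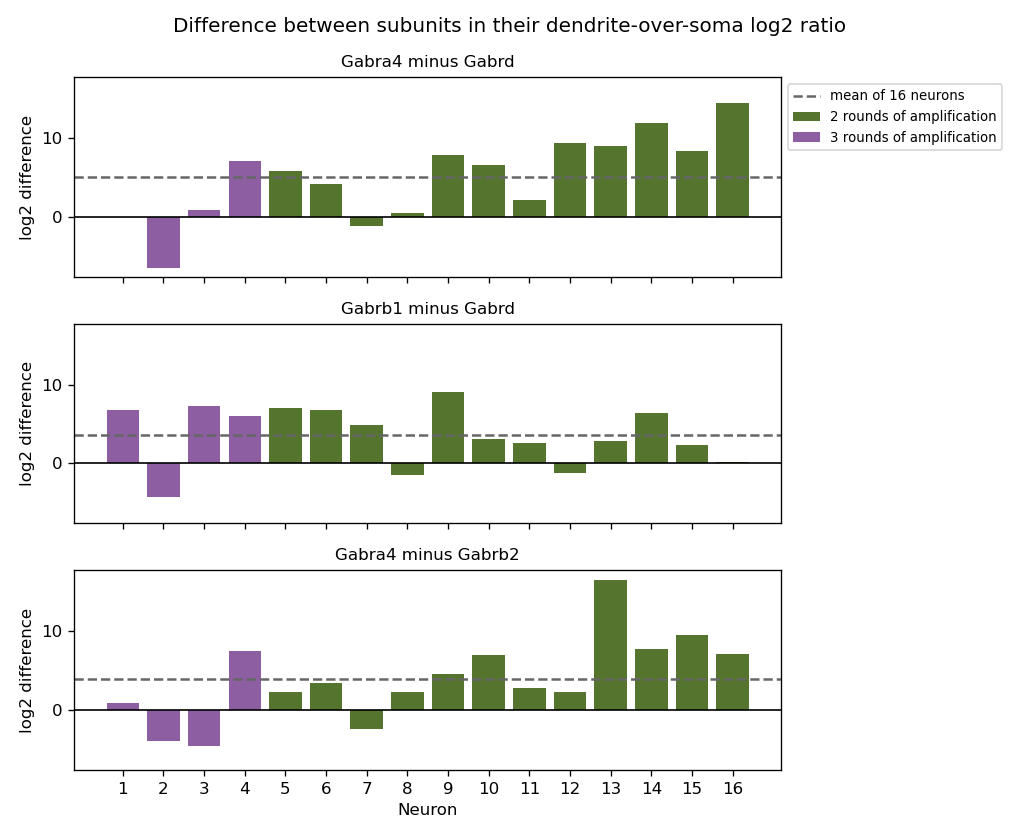
Difference between 2 subunits in their dendrite-minus-soma log2 CPM, for each neuron (bars, green for 2 and purple for 3 rounds of amplification), with the mean of 16 neurons as a dashed line. In each of the 3 panels 13 values are above 0 and 3 below, some of them close to 0, and those for Gabra4 are split 2 and 2 among the neurons with 3 rounds.

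The number of amplification rounds divided the neurons into batches of 12 and 4. In the 12 neurons with 2 rounds, the log2 fold change of Gabra4 was 3.75 (SE 1.62), with the higher level in the dendrites of 9 neurons and in the soma of 2. In the 4 with 3 rounds it was -1.33 (SE 1.97), with the dendrites higher in 1 neuron. The test of the difference gave -5.30 (SE 2.93, p = 0.0763, edgeR adjusted p = 1). For Gabra5 the values were -2.85 (SE 1.73) and 0.96 (SE 1.31), and for Gabra2 -2.29 (SE 2.06) and 0.64 (SE 2.22). Gabrb1 (0.74 and 3.45), Gabrb2 (-2.10 and -0.66), Gabrd (-4.71 and -1.48) and Gabra3 (-1.01 and -3.83) had the same sign in both batches. No gene of the 10880 passed the test of the difference between batches (288 had an unadjusted p under 0.05), and no member passed within a batch. The difference between Gabra4 and Gabrd was 6.57 (SE 1.32) within 2 rounds and 0.34 (SE 2.77) within 3 rounds, whereas that between Gabrb1 and Gabrd was 3.54 (SE 0.97) and 3.99 (SE 2.77).

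The variation between neurons was described with the dendritic share, in neurons with at least 10 CPM in sum. It is the dendrite CPM of a gene as a percentage of its dendrite and soma CPM together. Each CPM is relative to its own library, so the share is not the part of a neuron's mRNA held in its dendrites. The median share was 92.9% for Gabra4 (10 neurons), 79.2% for Gabrb1 (15 neurons), 61.0% for Gabra2 (8 neurons), 39.8% for Gabra5 (16 neurons), 21.7% for Gabrb2 (16 neurons), 12.5% for Gabrd (15 neurons) and 6.32% for Gabra3 (4 neurons). Gabra4 was above 90% in 6 of these 10 neurons and under 10% in none, but the limit of 10 CPM left out neurons with low levels, such as neuron 3 with 18 soma reads and no dendrite read. With a limit of 1 CPM its median was 82.3% (12 neurons). The limit of 10 CPM also left out neurons with reads of Gabra2 in the soma only (neurons 2, 8, 9, 10 and 16). The median of Gabra2 was 55.4% at 1 CPM (10 neurons). The medians of Gabrd and Gabra3 also moved with the limit. That of Gabrd was 7.42% at 1 CPM and 20.5% at 20 CPM, and that of Gabra3 was 42.4% at 20 CPM, where 2 neurons remained. Gabrd was under 10% in 7 of 15 neurons and above 90% in 1. Gabrb1 covered the whole range, from 0% to 98.1%, with 9 of 15 neurons above 50%, while Gabrb2 was the least spread (SD 23.6, against 28.6 to 39.0 for the others), with 12 of 16 neurons between 10% and 90%. The members with the lowest counts also have the coarsest shares.

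**Figure D4:**
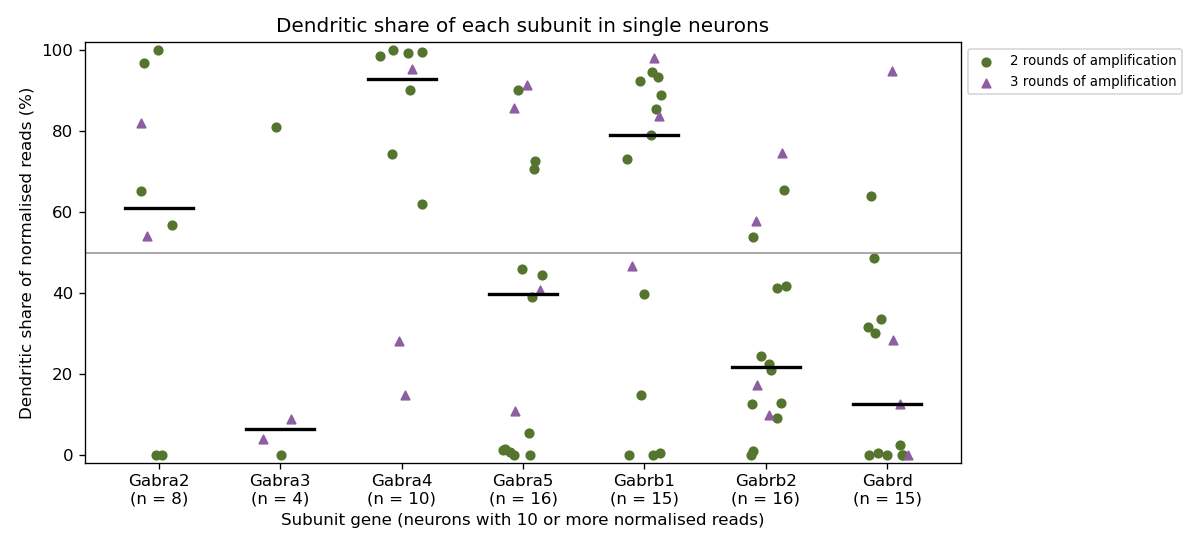
Dendritic share (dendrite CPM as a percent of the dendrite and soma CPM of a neuron together) of each subunit. Each neuron with 10 or more CPM has 1 point (circles for 2, triangles for 3 rounds of amplification). A black bar marks the median and a grey line marks 50%. Gabra4 clusters near the top (median 92.9%), Gabrd near the bottom (median 12.5%), and the points of Gabrb1 and Gabra5 span nearly the whole axis.

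Reads on exons and on the different 3′ ends were set against the 3′UTR counts. For Gabra5, Gabrb2 and Gabrd the exon count came to between 100% and 109% of the 3′UTR count in both compartments. For Gabrb1 it came to only 41.7% in dendrites and 28.9% in somas, so the exon counts missed most of its 3′UTR reads. For Gabra4 it was 78.6% and 40.2%: the dendrites of neurons 10 and 16 had 152 and 103 reads on the 3′UTR but 1 and 0 on exons, and the soma of neuron 1 had 110 and 0. The fold change of Gabra4 on exon counts was 2.56 (SE 1.49, adjusted p = 0.266), or 4.66 (adjusted p = 0.0423) without the neuron block, and that of Gabrb1 was 2.32 (SE 1.37, adjusted p = 0.270), so both kept their sign.

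The ends themselves are numbered in the files without coordinates, so that nearer and farther ends cannot be told apart here. Gabra2 and Gabra5 had a single end, which took 95.9% to 99.6% of their 3′UTR reads. End 1 held 99.9% of the end reads of Gabrb2 in dendrites and 98.6% in somas, and all but 3 of the end reads of Gabrd. Gabrb1 used several ends. Its end 3 held 75.6% of end reads in dendrites and 78.5% in somas, end 2 held 19.0% and 0.532%, and end 1 held 5.43% and 21.0%. The reads of end 2 came from 4 dendrite and 3 soma libraries. Of the reads on ends 1 and 3, end 3 took a mean of 80.8% in dendrites and 95.8% in somas over the 8 neurons with 10 reads in both compartments (exact signed-rank test, two-sided, p = 0.3125). The gap of 15.0 percentage points was 3.65 with at least 5 reads (10 neurons) and 4.81 with at least 20 (7 neurons). Neuron 2 had 11.1% in dendrites and 97.3% in its soma, while neurons 10 and 14 had 100% in both. The corresponding tests gave p = 0.219 for Gabrb2 (12 neurons) and p = 1 for Gabrd (6 neurons, exact), and Gabra3 and Gabra4 had too few neurons. Among all 3508 genes with such a test, 8.44% had p under 0.1 and none passed after adjustment. For Gabra4, 98.7% of end reads in dendrites lay on end 2, from 6 libraries, and 85.5% in somas, from 7.

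Genes that act around the receptor were then examined. Of 12 other GABA-A subunit genes, 5 had enough reads, and none passed the edgeR test (DESeq2 passed 1 as higher in dendrites and 4 as higher in somas, calls made for 4.26% and 46.2% of all genes); their median log2 fold change was -1.56. Among the scaffold and adhesion proteins of the inhibitory synapse, none of 8 tested genes passed (DESeq2 passed 5 as higher in somas, against 46.2% of all genes). The 3 with the smallest p were Gphn, which encodes the scaffold gephyrin (-3.54, SE 1.55, adjusted p = 0.122), the adhesion protein gene Nlgn3 (-3.11, SE 1.39, adjusted p = 0.129) and Dag1, which encodes dystroglycan (-3.12, SE 1.41, adjusted p = 0.132). Gphn was found in 16 somas and 12 dendrites. The list median was -1.12.

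Of 16 genes for receptor assembly and trafficking, 1 passed, against 6.53% of all genes, and DESeq2 passed 8 as higher in somas, against 46.2%. Akap5, an anchoring protein for kinases and phosphatases at the membrane, fell by 6.13 on the log2 scale from soma to dendrite (SE 1.36, edgeR adjusted p = 0.0117), from a median of 168 to 1.01 CPM. The list median was -1.36. None of 7 genes for GABA-B receptors and chloride cotransporters passed (3 in DESeq2, as higher in somas), with Slc12a2, a chloride importer, nearest (-5.37, SE 1.80, adjusted p = 0.0571), then Gabbr2 and Gabbr1, the subunits of the GABA-B receptor (-2.22 and -0.78, adjusted p = 0.160 and 0.257). For comparison, none of the 4 AMPA receptor subunit genes passed (3 in DESeq2, as higher in somas; list median -1.69), and the 3 with the smallest p were Gria1 (-1.27), Gria4 (-2.10) and Gria3 (-3.25).

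The genes whose levels most resembled a member across the 32 libraries, after the mean of each compartment was removed from log2 CPM, were Ndufa11 for Gabrb2 (Pearson r = 0.83, then Clstn1 and Atp6v0a1 with 0.82 each), Psmd14 for Gabrb1 (0.79, then Cuedc2 with 0.77), Tox2 for Gabrd (0.74, then Mtfp1 with 0.74 and Ralgapb with 0.72), Syngr1 for Gabra5 (0.72, then Cacfd1 with 0.71 and Rab21 with 0.70) and Creb5 for Gabra4 (0.67, then 5031425E22Rik with 0.67 and Dnajc8 with 0.63). They are among the highest of 6816 genes compared, and all values share the depth and quality of the same libraries. Gabra2 and Gabra3, with reads in 18 and 17 libraries, were left out.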

How the data were processed

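Soma and dendrite libraries of 16 neurons were compared. The authors removed adapters and poly-A tails, mapped to mm10 with STAR 2.4.0 and counted unique reads by strand with VERSE. All deposited values are raw read counts: on the union of 3′UTRs per gene (44081 genes), on the final 500 nt of every 3′ end (74532 features) and on exons (23453 genes) with 92 ERCC spike-ins. The annotation of the exon counts is not given in the sources used here. The counts hold no molecular identifiers, so limits from 0 reads cover counting error only.

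A gene needed 1 read in 16 or more samples to be tested with edgeR 4.0.16 in R 4.3.3 (TMM, robust quasi-likelihood fit, neuron as a block, Benjamini-Hochberg adjusted p of at most 0.05), with DESeq2 1.42.0 as an alternative. CPM values use TMM-scaled library sizes. An exact signed-rank test compared the shares of 3′ ends where genes had 10 reads on the top 2 ends in both compartments of 5 or more neurons. A test of the distal end was planned, but the ends carry no coordinates, so the share of the higher-numbered end was used. The edgeR fit was tested on simulated data. Pairing comes from the cell: after the compartment means were removed, libraries of the same neuron correlated at 0.0854 ± 0.0766 (SD, n = 16) across genes, and those of different neurons at -0.00527 ± 0.0529 (SD, n = 240). The culture of each neuron is not recorded. The p-values measure the spread between neurons and cannot account for any shared culture.

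The members and lists were chosen with earlier results of these data known. The text names all 7 members, and of each other list the genes that passed or otherwise the 3 with the smallest p. For members with reads in at least 24 libraries, the 3 genes with the highest r are named. A few genes that these rules included are not reported here. Alternatives covered the test, scaling, filters, exons, ERCC, the block, rounds, depth and each neuron left out.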

Additional observations from a re-analysis of the deposited data

How the results depend on the processing

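With each neuron left out in turn, between 0 and 1 of the 7 members passed on 3′UTR counts (Gabrd, without neuron 2), and no member changed sign. Without neuron 2, 948 of 10880 genes passed on the soma side and 116 on the dendrite side, against 621 and 90 with all neurons. DESeq2 passed 4 members on 3′UTR counts, where 4.26% of all genes passed on the dendrite side and 46.2% on the soma side. It passed 3 members on exon counts, where these shares were 3.68% and 46.5%. Scaling exon counts by ERCC reads in 14 neurons passed 3 (Gabra5, Gabrb2 and Gabrd, all higher in somas, as were 6145 of 9804 genes) and moved the median gene to -4.11, which took Gabrb1 to -0.24. Without the replicate block, 0 members passed on 3′UTR counts and 1 on exon counts (Gabra4, 4.66, adjusted p = 0.0423). Among all 10880 genes on 3′UTR counts, 157 then passed on the dendrite side and 77 on the soma side. Among 9804 genes on exon counts, 215 and 45 did. Without the block the median gene lay at -0.22 on 3′UTR counts, and Gabra2 turned to 0.66 (0.69 on exons) and Gabra3 to 3.12 on exons. The block thus changed the call of Gabra4 on exons and no other call of a member. In the 4 neurons with 3 rounds, Gabra2 (0.64), Gabra4 (-1.33) and Gabra5 (0.96) turned sign, as did the difference between Gabra4 and Gabrb2 within libraries (-0.049). Of 75 values of members under the alternatives to the 3′UTR fit other than leaving out a neuron, 63 kept sign and side of the threshold. The cause of these changes was not tested. With at least 10 reads in 16 samples, Gabra2 and Gabra3 could not be fitted on 3′UTR counts, nor these and Gabra4 on exons. Setting the median gene near 0 gave 3.87 for Gabra4 (adjusted p = 0.0916) and 2.98 for Gabrb1 (0.0988), and brought Gabrd to -2.21 (0.422), Gabrb2 to -0.31 (0.875) and Gabra5 to -0.14 (0.969). The comparisons within libraries, and those without neuron 15 of these and of detection, were added after the data were seen. Gabra2 and Gabra3 had under 10 reads in most libraries, and neither passed in any of these fits. The part of read depth in this was not tested.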
